A study of Drosophila melanogaster with 9 samples.

Results

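The control larval central nervous system (CNS) was described from the 3 control arrays of a study of 9 arrays, that is from 3 of 9 samples. Control larvae carried the glial driver repoGal4 over a wild-type chromosome (repoGal4/+). The other arrays came from larvae in which the same driver expressed an activated FGF receptor (repoGal4>UAS-Htl[ACT], 3 arrays) or the insulin receptor (repoGal4>UAS-InR, 3 arrays). All 3 genotypes therefore carried repoGal4, which drives expression in nearly all glial cells, and a CNS without the driver was not analysed here. Each sample was RNA of the complete CNS of 10 to 15 wandering larvae of the third instar grown at 25 °C, and 500 ng of total RNA was labelled for an Affymetrix Drosophila Genome 2.0 array. The RNA was prepared in triplicate per genotype, and the labels do not say whether each preparation came from a separate dissection.

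The CNS of a wandering larva holds a working nervous system beside one that is still being built. Functional larval neurons release acetylcholine, GABA, glutamate, amines and peptides. Beside them, neuroblasts of the brain lobes and the ventral nerve cord divide asymmetrically and leave clusters of immature neurons that will form the adult circuits, while the optic lobe proliferates at the side of each brain lobe. Glia wrap cell bodies, neuropil and the surface of the organ, where they form the blood-brain barrier. A whole-CNS signal sums over all of these cells, so fewer cells of a type and less RNA per cell cannot be told apart.

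The values were linear MAS5 signals (intensity) that had been scaled to a 2% trimmed mean of 500.0 on each array. MAS5 subtracts from each matching probe the signal of a probe with a central mismatch. The signal of a probe set also depends on how well its probes bind, so the order of genes given here is an order of probe set brightness. Of 18952 probe sets, 183 manufacturer's controls were left out and 18769 were ranked by the mean log2 signal of the 3 control arrays, and signals averaged over arrays are given on the signal scale. Probe sets with a mean of at least 1000 were called bright, those under 50 near background, and those between moderate. Bright probe sets numbered 3331 (17.7% of 18769), moderate ones 5438 and near-background ones 10000 (53.3%). The lower limit was compared with 17 probe sets for artificial tag sequences, which have no target in the fly. Their signals lay between 0.346 and 32.2, and all 17 were near background. The tags cannot check the limit of 1000, and they do not show that probe sets between 32.2 and 50 lack a transcript.

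The bands were reproducible from array to array. On 17513 probe sets (93.3%) the 3 control arrays gave the same band, and 23 probe sets were bright on 1 array and near background on another. The spread between arrays depended on brightness. The median SD of the log2 signal was 0.09 for bright, 0.15 for moderate and 0.87 for near-background probe sets, and the highest array was at least 2-fold above the lowest for 0.60%, 5.50% and 72.1% of them. The order within the near-background band is therefore not resolved by these arrays. At the limits, Cenp-C (1001) was just inside the bright band and Spt-I (999.9) just outside it, and CG9733 (50.003) was just inside and CG6470 (49.995) just outside the moderate band. Between pairs of control arrays the log2 signals of the 8769 probe sets at or above 50 correlated at Pearson's r of 0.965 (arrays 1 and 2), 0.981 (1 and 3) and 0.967 (2 and 3), a correlation across probe sets of one organ, which are not independent replicates.

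**Figure D1:**
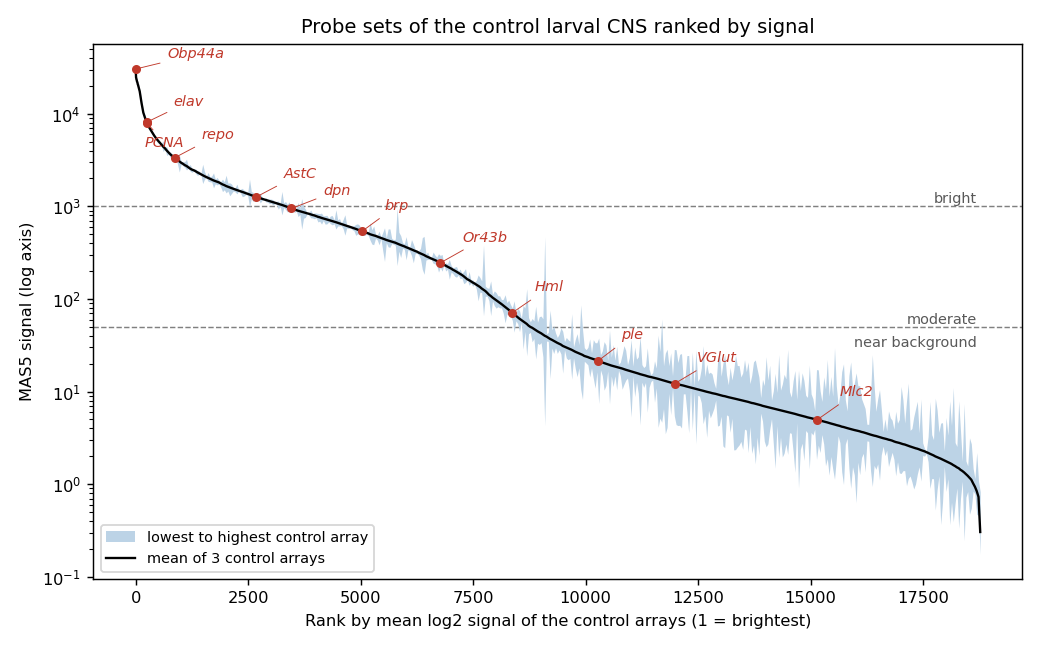
Mean MAS5 signal of the 3 control arrays (line, log axis) against rank for 18769 probe sets, with the lowest to highest control array shaded and 12 genes marked; dashed lines stand at signals of 1000 and 50. The shading is narrow in the bright band and widens below 50, where 72.1% of probe sets differed at least 2-fold between arrays.

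By gene, 13646 probe sets named 1 gene and stood for 11981 genes, with the brightest probe set taken where a gene had several. Of these genes 2751 were bright (23.0%) and 4880 near background (40.7%), and the median gene had a signal of 191. The brightest gene was Obp44a, which encodes a member of the odorant-binding protein family of small secreted carriers of hydrophobic molecules. Its signals were 30491, 30936 and 29734 on control arrays 1, 2 and 3 (mean 30387 ± 608, SD, n = 3). RpL41, a protein of the large ribosomal subunit, followed with 29277, 28954 and 28245. The third gene was fabp, a fatty acid binding protein of the cytoplasm, with 27102, 26395 and 26624. Among all probe sets fabp was at rank 6. The order by gene leaves out probe sets that name no gene or several, and further probe sets of a gene. The arrays of these 3 genes did not overlap, so their order was the same on each control array. After them the order was no longer resolved: RpL15 (24544, 25556 and 24853) and RpLP1 (24314, 24686 and 25296) overlapped.

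Ribosomal proteins made up 18 of the 25 brightest genes among those with a probe set naming 1 gene. The lowest of the 25 had a signal of 20229, below that of rank 51 among all probe sets (20667), so other bright probe sets were passed over. The other 7 were Obp44a, fabp, the actin-severing cofilin tsr (23112, 23458 and 23292), the phosphoserine-binding adaptor 14-3-3epsilon (23791, 23056 and 22439), the small heat shock protein Hsp27 (22691, 19723 and 19726), the translation factor eEF5 (20837, 19932 and 21153) and the ubiquitin-like modifier Sumo (19719, 21026 and 20450). No gene of the 25 differed by more than 1.15-fold between control arrays. The 100 brightest probe sets held 15.4% to 15.7% of the summed signal of an array, and 93 of the 100 brightest on each array were shared by all 3. Of the 100 brightest by the control mean, 92 were also among the 100 brightest of the Htl[ACT] mean and 96 among those of the InR mean. Whether the brightest probe sets were near the upper limit of the scanner cannot be read from these values.

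The bright band was led by the machinery of protein synthesis. Of 34 cytoplasmic ribosomal protein genes with a probe set of their own, 29 were bright, and the median signal of the 34 was 20269. The list held 86 genes, and those beyond the 34 had no probe set of their own in the annotation used and were not counted. Whether they share probe sets with further genes or are missing from the annotation was not tested. The members near background were duplicate copies of ribosomal genes: RpS28a (33.2, 38.3 and 19.3), RpS10a (25.2, 16.3 and 9.82) and RpL10Aa (3.82, 5.48 and 8.34), while RpS28b, the other copy of RpS28a, was at 23406, 23391 and 23526. All 26 translation factors were bright, with eEF1alpha2, the elongation factor that brings tRNA to the ribosome, at 20422, 19762 and 19532. All 26 proteasome subunits were bright as well, within a narrow range from 3188 to 9312, whereas 23.0% of all genes were bright. Mitochondrial ribosomal proteins were dimmer, with 43 bright and 26 moderate of 69 and a median of 1172.

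Energy genes were bright or near background with few between. Of 72 genes of the respiratory chain and ATP synthase, 50 were bright, 4 moderate and 18 near background. Their shares were 69.4% bright and 25% near background, beside 23.0% and 40.7% of all genes. The bright ones included the ATP synthase subunits blw (13547, 14334 and 14816) and ATPsynC (14251, 14134 and 14802). The related gene ATPsynbetaL was at 18.4, 24.7 and 24.2, against 9447, 9988 and 10474 for ATPsynbeta, the catalytic subunit. Vacuolar ATPase subunits, which acidify endosomes and synaptic vesicles, fell likewise into 15 bright and 14 near-background genes of 31, from Vha16-1 (11375, 12056 and 12100) to Vha36-3 (39.1, 35.2 and 34.2). Their near-background share was 45.2%, close to the 40.7% of all genes. Glycolysis was bright for 8 of 10 genes, led by the enolase Eno (11081, 11445 and 12555), while the hexokinase Hex-C was near background (21.8, 5.14 and 10.6). Histone variant and chromatin genes were bright in 9 of 9 cases, among them His2Av (14884, 16076 and 16639) and the AT-hook protein D1 (15690, 15458 and 15743). RNA-binding and splicing factors were bright in 18 of 20, with the SR protein B52 at 12245, 12370 and 12737.

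**Figure D2:**
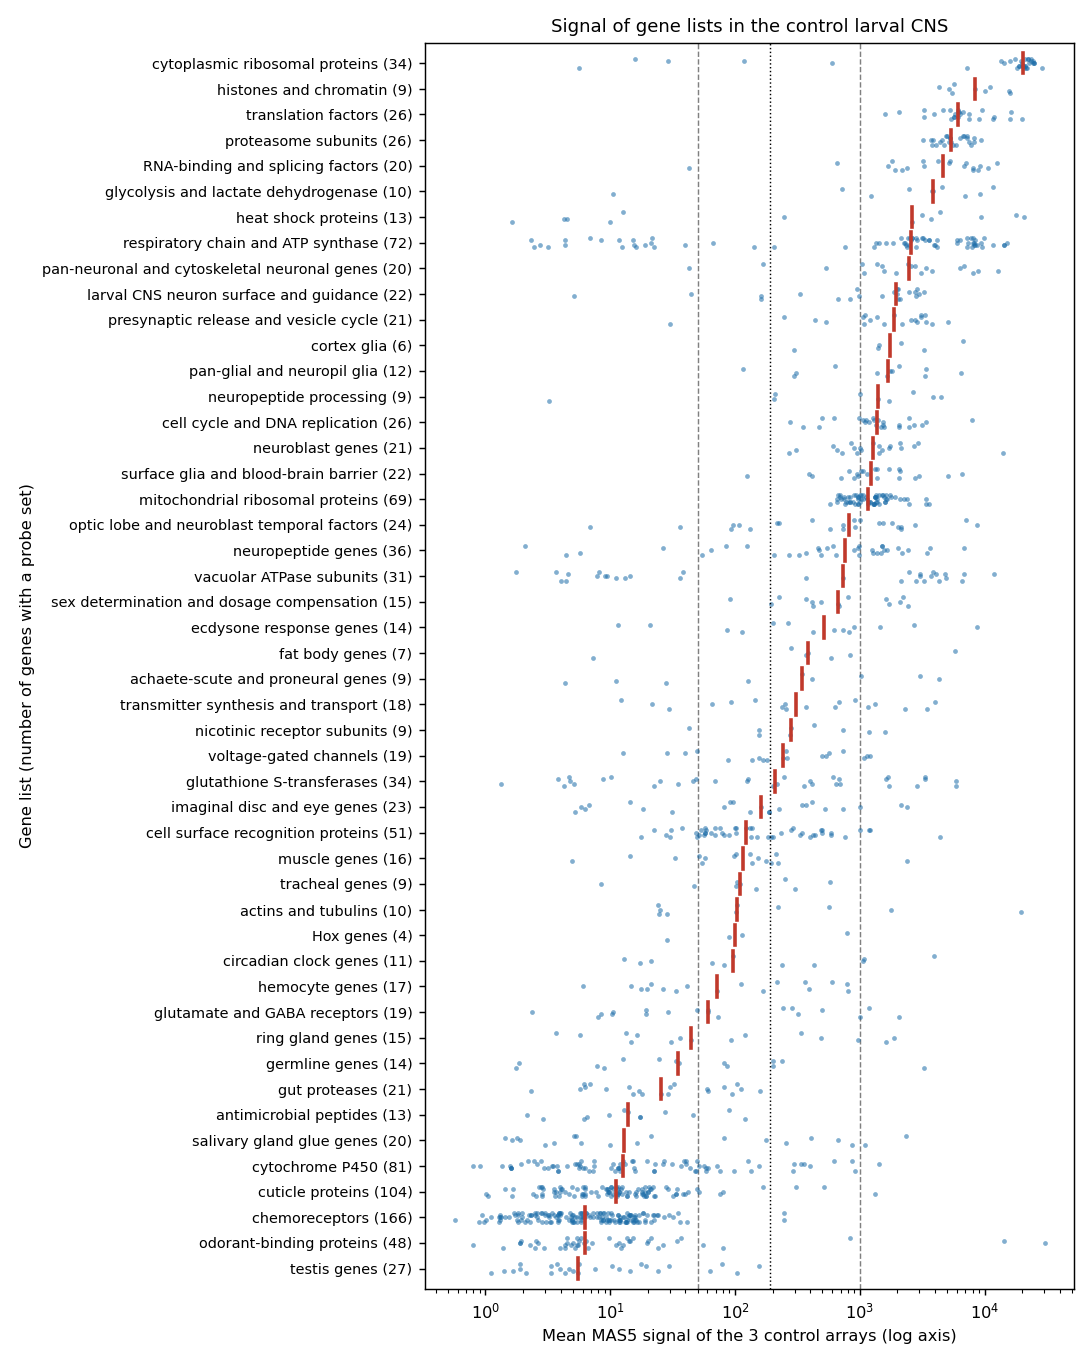
Mean MAS5 signal of the 3 control arrays (log axis) for the members of 48 gene lists, ordered by the list median (red bar); each point is a gene, the number of genes follows the list's name, dashed lines stand at 50 and 1000 and the dotted line at the median gene (191). List medians ran from 5.55 for testis genes to 20269 for cytoplasmic ribosomal proteins, and lists such as the vacuolar ATPase fell into bright and near-background members.

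The label of the tissue was checked against defining markers. The neuronal RNA-binding protein elav gave 8779, 7555 and 8054, and the vesicle SNARE nSyb 1464, 1704 and 1523, while the active zone scaffold brp was moderate at 395, 636 and 626. The glial transcription factor repo gave 3545, 3055 and 3449, and the cortex glia adhesion protein wrapper 3299.6, 3183 and 3375. All 4 neuroblast markers stood near or above 1000: mira (2760.3, 2707 and 2618), wor (1804, 1660.3 and 1697), ase (969, 1006 and 1086) and dpn (986, 970.0 and 891). Lists of genes known from other tissues had few bright members, beside 23.0% of all genes. Of 16 muscle genes 1 was bright and 12 moderate. Of 17 hemocyte genes 9 were moderate and none bright, and of 9 tracheal genes 7 were moderate and none bright. Near background were 18.8% of the muscle, 47.1% of the hemocyte and 22.2% of the tracheal genes, beside 40.7% of all genes. Of the muscle, hemocyte and tracheal lists only the hemocyte list lay above all genes by this share. Of 15 ring gland genes 2 were bright and 8 near background (53.3%). Markers of 1 tissue differed in band. Near background were the muscle light chain Mlc2 (5.25, 8.44 and 2.77) and the hemocyte receptor NimC1 (40.6, 21.7 and 20.9). So were the tracheal FGF receptor btl (22.8, 23.1 and 1.16) and the sperm gene dj (1.15, 0.547 and 4.55). Moderate were the muscle marker sls (216, 171 and 147) and the hemocyte markers Pxn (406, 356 and 325) and Hml (63.4, 77.7 and 72.6). The tracheal marker serp (388, 240 and 288) and the testis marker betaTub85D (112, 111 and 91.3) were moderate too. Of the imaginal disc markers ap was bright (1224, 1036 and 809), and Dll, nub and vg were moderate. Of the ring gland markers Akh (455, 483 and 521) and sad were moderate and dib near background. Salivary gland glue, fat body and gut genes differed between the control arrays and are described with the variable genes, and the tracheal chitin-binding gene Gasp gave 888, 309.95 and 683.

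Neuronal genes were bright as a group, at the level of the cytoskeleton and of transmitter release. Of all genes 23.0% were bright and 40.7% near background. Of 20 pan-neuronal genes 17 were bright, 2 moderate and 1 near background, with a median of 2497. The brightest was nrv3, the beta subunit of the neuronal sodium pump (11826, 12987 and 13291), followed by the elav relative fne (9350, 8922 and 8407) and by Appl, the fly homologue of the amyloid precursor protein (7213, 6901 and 6461). The third elav relative, Rbp9, was the near-background member (54.4, 45.4 and 31.7). Of 21 genes of presynaptic release and the vesicle cycle 17 were bright, led by the kinesin unc-104 (5488, 4967 and 4753), the vesicle GTPase Rab3 (3346, 4150.0 and 3944) and the chaperone Csp (3401, 3345 and 3483). Genes of axon guidance and neuronal adhesion had a median of 1931, with 13 of 22 bright. The netrin receptor fra was at 3613, 3234 and 3040, and the secreted midline repellent sli was near background (36.1, 2.57 and 1.47).

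Transmitter genes spanned the whole range. Acetylcholinesterase, Ace, was brightest (4755, 3717 and 3574), followed by Gad1, which makes GABA (2803, 3527 and 4194), and ChAT, which makes acetylcholine (2190, 2126 and 2587). The cholinergic transporters ChT (1006, 1461 and 1560) and VAChT (1204, 1148 and 1141) were bright too. The vesicular glutamate transporter VGlut was near background (20.3, 22.3 and 4.01), and so was ple, the tyrosine hydroxylase of dopamine neurons (17.7, 21.9 and 25.8). Of 18 transmitter genes, 5 were bright (27.8%), close to the 23.0% of all genes, 10 moderate and 3 near background. Receptors and channels had lower list medians than the release machinery. Nicotinic acetylcholine receptor subunits were bright in 2 of 9, a share like the 23.0% of all genes: nAChRbeta1 (1295, 1695 and 1845) and nAChRalpha2 (1220.3, 1245 and 1094). Glutamate and GABA receptors were bright in 3 of 19 and near background in 9, with the GABA-gated subunits Lcch3 (1953.5, 2200 and 2056) and Rdl (944, 1302 and 1325) at the top and the muscle-type glutamate receptor subunits GluRIID (23.3, 23.7 and 44.8) and GluRIIE (14.1, 30.4 and 17.0) near background. Voltage-gated channels were bright in 3 of 19: the potassium channel Sh, the pacemaker channel Ih (1050, 1181 and 1171) and the calcium channel cac (860.1, 1158 and 1242). For these channels and for the glutamate and GABA receptors the bright share was 15.8%, beside 23.0% of all genes.

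Peptide precursors, which are made by few neurons, reached the bright band in 14 of 36 genes (38.9%, beside 23.0% of all genes). The myosuppressin precursor Ms gave 6307, 7004 and 7059. The insulin-like peptides Ilp5 (3360, 3865 and 3739) and Ilp2 (2208, 2401 and 2716.5) of the brain's insulin-producing cells followed, with Nplp1 (3758, 3389 and 3285) and the ion transport peptide ITP (2167, 2102 and 2288). Another insulin-like peptide, Ilp8, which is known from damaged imaginal discs, was near background (5.92, 5.10 and 2.78). Enzymes that mature peptides were bright in 6 of 9, among them 7B2, a helper of the convertase, Pal2 (3588, 4037 and 3983) and the amidating enzyme Phm (2568.5, 2858 and 2593), while dimm, a transcription factor of peptidergic cells, was near background (4.24, 3.27 and 2.46). Of 51 cell surface recognition proteins of the dpr, DIP, beat and side families, 40 were moderate, 8 near background and 3 bright, with dpr7 far above the rest (4483, 4546 and 4057) and dpr19 next (1262, 1162 and 1178.5).

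Genes of neuroblasts and of division were bright or moderate. None of the 21 neuroblast genes and none of the 26 cell cycle genes was near background, against 40.7% of all genes. The homeodomain protein pros, which enters the nucleus of the neuroblast's daughter and ends its divisions, gave 15145, 13902 and 12994. The zinc finger gene erm, which keeps intermediate progenitors from reverting, gave 2940.5, 3036 and 2869. The replication clamp PCNA gave 6623, 8353 and 8898, and the replicative helicase subunits Mcm6 (3097, 3442 and 3694) and Mcm2 (2375, 2508 and 2564) were bright as well. Of 24 genes that pattern the optic lobe or mark the age of neuroblasts, 9 were bright (37.5%, beside 23.0% of all genes), 13 moderate and 2 near background. The ecdysone-induced gene br was the brightest of them (8407, 8891 and 8690.1), followed by the RNA-binding protein Syp, which marks older neuroblasts (7866, 6718 and 6835). The early temporal factors hb (57.2, 30.5 and 27.7) and lin-28 (6.18, 6.07 and 8.47) were near background. Of 4 Hox genes with a probe set, Antp was highest (622, 863 and 931) and pb near background (31.0, 33.9 and 21.7). Among the proneural genes the shared partner da (4183, 4326.5 and 4354) and tap (3113, 3002 and 3010.5) were bright, and ac, cato (30.8, 3.20 and 13.6) and amos (13.9, 3.35 and 1.72) were near background.

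Glial genes were also bright or moderate throughout. Of 12 pan-glial and neuropil glia genes 8 were bright, of 6 cortex glia genes 5 and of 22 surface glia genes 14, and none of the 3 lists had a near-background member. Of all genes 23.0% were bright and 40.7% near background. Gs2, the glutamine synthetase of neuropil glia, gave 5281, 6337.5 and 7893. The astrocyte-like glia gene alrm gave 3045, 3336 and 3716. The sterol-binding protein Npc2a was the brightest cortex glia gene (6562, 6863 and 6845). At the blood-brain barrier the septate junction proteins Lac (7290.1, 6643 and 5917) and Nrx-IV (5605, 5084.5 and 4591), the transporter Mdr65 (2629, 2745 and 3748) and the G protein-coupled receptor moody (2815, 2352 and 3128) were bright. The medians of the 3 glial lists, 1693, 1740 and 1228, were below the medians of the pan-neuronal (2497) and presynaptic (1890) lists.

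At the other end of the ranking stood large families of sensory, cuticular and reproductive genes. Of 166 chemoreceptor genes (odorant, gustatory and ionotropic receptors) 164 were near background, with a median signal of 6.32. The exceptions were Ir76a (256, 259 and 227) and Or43b (295, 219 and 227), and the next receptor, Or67d, was at 56.6, 34.2 and 36.1. Odorant-binding proteins were near background in 43 of 48 cases, with a median of 6.24, in contrast to Obp44a at the top of the ranking and Obp99a at 13853, 14623 and 14619. Cuticle proteins were near background in 97 genes, moderate in 6 and bright in 1, Cpr49Ac. So were testis genes in 23 of 27, antimicrobial peptides in 11 of 13 and cytochrome P450 enzymes in 61 of 81. The bright P450 was Cyp4g15 (1132, 1494.5 and 1671). Of 14 germline genes 8 were near background (57.1%, beside 40.7% of all genes), including the piRNA factors piwi (25.0, 37.6 and 40.6) and AGO3 (32.2, 18.5 and 24.5). In contrast, tud was bright (3307, 3330.4 and 3089). Of the clock genes, vri (4397, 3904 and 3545) and cyc (1132, 1084.5 and 1033) were bright, and Clk (22.1, 19.1 and 22.6) and cry (26.2, 29.6 and 6.59) were near background.

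Apart from the lists, some features that played no part in the ranking differed between bands. Of the 65 genes of the fourth chromosome with a probe set, 31 were bright (47.7%) and 9 near background, while the X and the arms of chromosomes 2 and 3 had 22.5% to 24.4% bright genes. The median span of a gene in the genome was 3107 bases for bright, 3016 for moderate and 1584 for near-background genes, and 27.0% of the near-background genes spanned under 1000 bases, against 10.3% of the bright ones. Genes known only by a CG number made up 22.3% of the bright, 38.2% of the moderate and 59.8% of the near-background genes. Of 77 long non-coding RNA genes 62 were near background and 5 bright. Named after its value was seen, the non-coding gene lncRNA:CR33938 ranked at 85 with 18659, 18579 and 17830 (SD of 0.04 on the log2 scale). These shares are descriptions across genes and were not tested.

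The choice of probe set mattered for part of the genes. Of 1094 genes with several probe sets, 587 (53.7%) had them in different bands, and 138 (12.6%) had 1 bright and 1 near-background probe set. CRMP, named as an example after the values were seen, had a probe set with 5617, 4802 and 4571 and another with 6.67, 0.295 and 2.64. A band given here is therefore that of a gene's brightest probe set. Averaging over a gene's probe sets in place of taking the brightest moved the median of 3 of the 48 lists into another band: glutamate and GABA receptors (61.2 to 49.9), muscle genes (115 to 41.0) and neuronal surface and guidance genes (1931 to 959).

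Variation between the control arrays was sought among the 8769 probe sets with a mean signal of at least 50. In 319 of these (3.64%) the highest array was at least 2-fold above the lowest. By gene, 206 of 7101 varied (2.90%). The number was lower without any 1 control array, at 141 without control array 1 and 176 without control array 2. A range over 2 arrays is narrower than one over 3, so these drops cannot show that the number depended on a single array. Only 20 of the 319 were in the bright band. The highest array was control 1 for 129 probe sets, control 2 for 131 and control 3 for 59. An array stood at least 2-fold above both others for 43, 70 and 7 probe sets. The 25 genes with the largest range included digestive proteases, fat body storage genes and salivary glue genes.

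**Figure D3:**
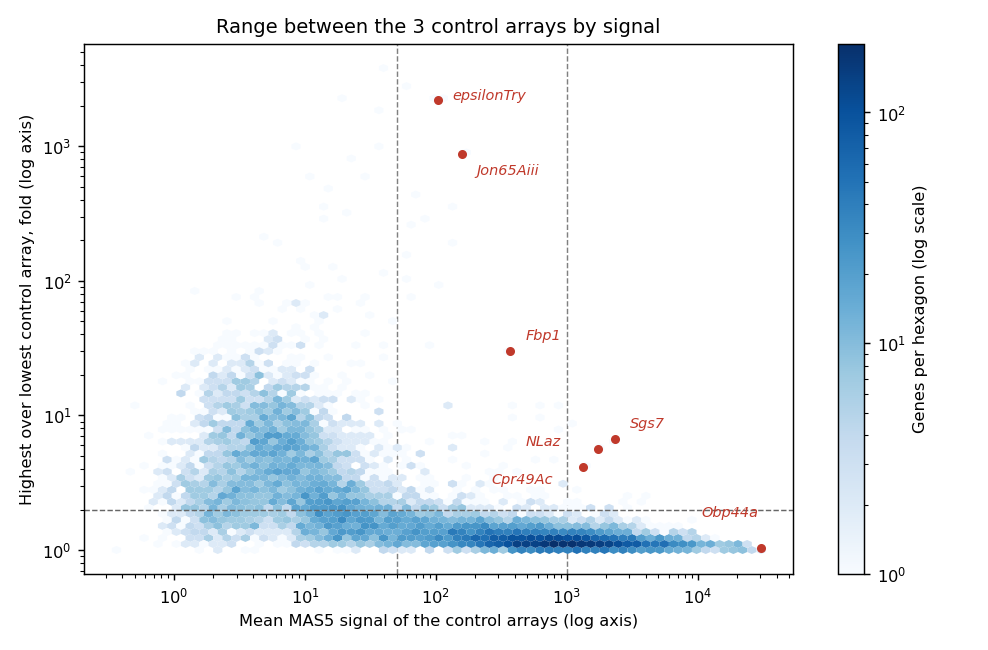
Ratio of the highest to the lowest control array (log axis) against the mean control signal (log axis) for 11981 genes, shaded by the number of genes; dashed lines stand at 2-fold and at signals of 50 and 1000. Of the 7101 genes at or above 50, 2.90% lay above the 2-fold line, while ratios spread widely below 50.

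Digestive enzyme genes of the gut were high on control array 2 alone among the control arrays. The trypsin epsilonTry gave 4.50, 9917 and 24.6, and the serine protease Jon65Aiv 43.4, 8678 and 3.71. Jon65Aiii (56.5, 7808 and 8.90), yip7 (24.4, 6156 and 17.0), alphaTry (12.05, 2187 and 8.22) and betaTry (42.7, 1855 and 6.82) showed the same pattern. The summed signal of 3 gut markers was 111, 11850 and 23.9 on the control arrays and 60.8 to 366 on the 6 other arrays, so the level of control array 2 was not reached elsewhere. Of 21 gut protease genes 7 had a control mean of 50 or more, all 7 of them varied, and 14 were near background. These moderate means came from 1 array.

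Fat body and glue genes were also highest on control array 2. The storage protein Lsp2, made by the fat body, gave 236, 2858 and 303, and the storage protein receptor Fbp1 193, 2822 and 93.0. The odorant-binding protein Obp99b followed them (371, 4286 and 367). Yet apolpp, the lipophorin precursor of the fat body, did not vary (6132, 6072 and 5222). The summed signal of 2 fat body markers was 429, 5680 and 396 on control arrays and 411 to 732 on 4 of the others, while InR arrays 2 and 3 were higher still, at 14546 and 7854. The salivary gland glue genes Sgs3 (381, 3269 and 1067), Sgs7 (945, 6299 and 2159) and Sgs8 (313, 2602 and 784) were lowest on control array 1 and highest on control array 2. Their summed signal was 1639, 12170 and 4010 on the control arrays, and between 1333 and 12018 on the others, with InR array 2 highest. Of 319 variable probe sets, 151 (47.3%) also ranged at least 2-fold among the Htl[ACT] arrays and 151 among the InR arrays, against 5.998% and 3.95% of all 8769. Whether pieces of gut, fat body or salivary gland were taken with the CNS was not tested.

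**Figure D4:**
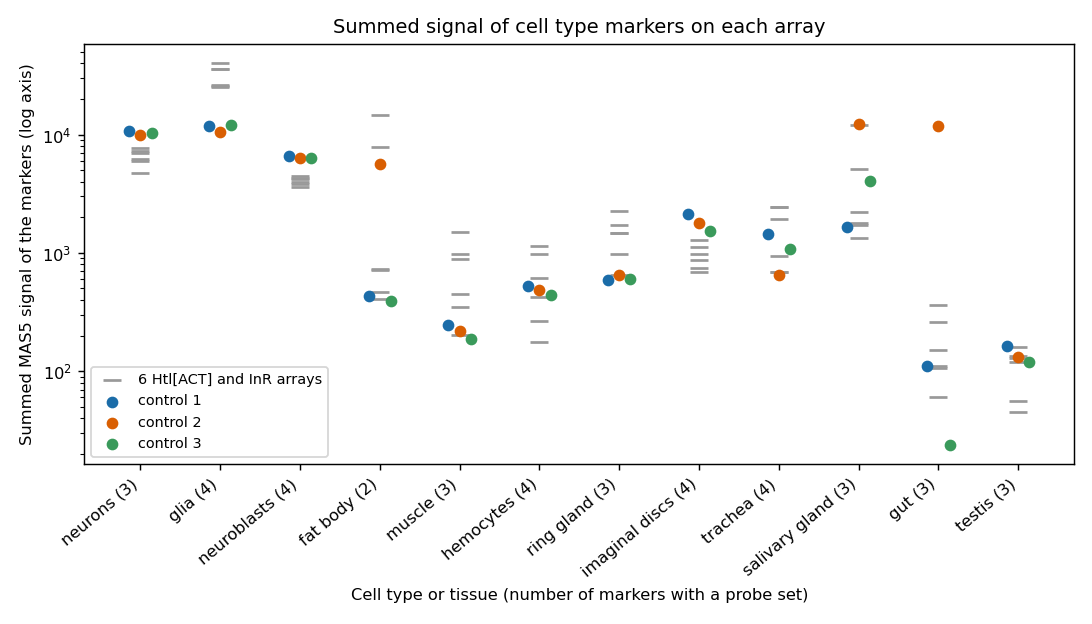
Summed MAS5 signal (log axis) of the markers of 12 cell types or tissues on each array; coloured points are the 3 control arrays and grey bars the 6 Htl[ACT] and InR arrays, and the number of markers with a probe set is in parentheses. The control arrays lay close together for neurons (9895 to 10638), glia (10599.5 to 11962) and neuroblasts (6293 to 6519) and far apart for gut (23.9 to 11850), fat body (396 to 5680) and salivary gland (1639 to 12170).

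Control array 1 was set apart by other genes, several of them known targets of the moulting hormone ecdysone. ImpE1, an ecdysone-inducible gene, gave 5006, 2061 and 1939. ImpE2 (513, 189 and 192), ImpE3 (177, 105 and 77.6) and the nuclear receptor Eip78C (196, 62.1 and 52.6), which were named after their values were seen, were likewise highest on array 1. Eip93F, a late gene of the response that was also named after its values were seen, had the same order with a range under 2-fold (1046, 696 and 551). The early gene br did not share it and differed by 1.06-fold between the arrays. The cuticle protein Cpr49Ac (2760, 1248 and 671) and the chitinase Cht5 (304, 147 and 97.8), the latter also named after its value was seen, followed the same order. Of 12 ecdysone response genes with a mean of at least 50, 5 varied between the control arrays, beside 2.90% of all 7101 genes. The ecdysone-induced gene Eig71Ee, also named after its values were seen, was lowest on array 1 and highest on array 2 (107, 437 and 119). This was the order of the glue genes above. High signal on array 1 was therefore not shared by all genes known to respond to ecdysone. The labels give wandering as the only stage, and whether the larvae differed in age was not tested.

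Other genes were high on control array 1 too. The lipocalin NLaz gave 5163, 909 and 1098, and all 6 other arrays lay between 3426 and 9511, so that control arrays 2 and 3 were the low ones among the 9. The heat shock genes Hsp68 (736, 142 and 144, named after its values were seen) and Hsp26 (6428, 2897 and 2720) were high on array 1, but Hsp27 and Hsc70-4 (18488, 17245 and 17255) differed by under 1.2-fold. The small heat shock gene l(2)efl, also named after its values were seen, was lowest on array 1 (167, 712 and 308). The drosomycin-like gene Drsl5 gave 486, 39.3 and 92.5. Of the 43 probe sets that stood 2-fold above both others on control array 1, 24 had all 6 other arrays above control arrays 2 and 3. The same count was 12 of 70 for control array 2 and 1 of 7 for control array 3. These probe sets were chosen for low signals on 2 control arrays, which favours such a count, and differences between genotypes enter it too.

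**Figure D5:**
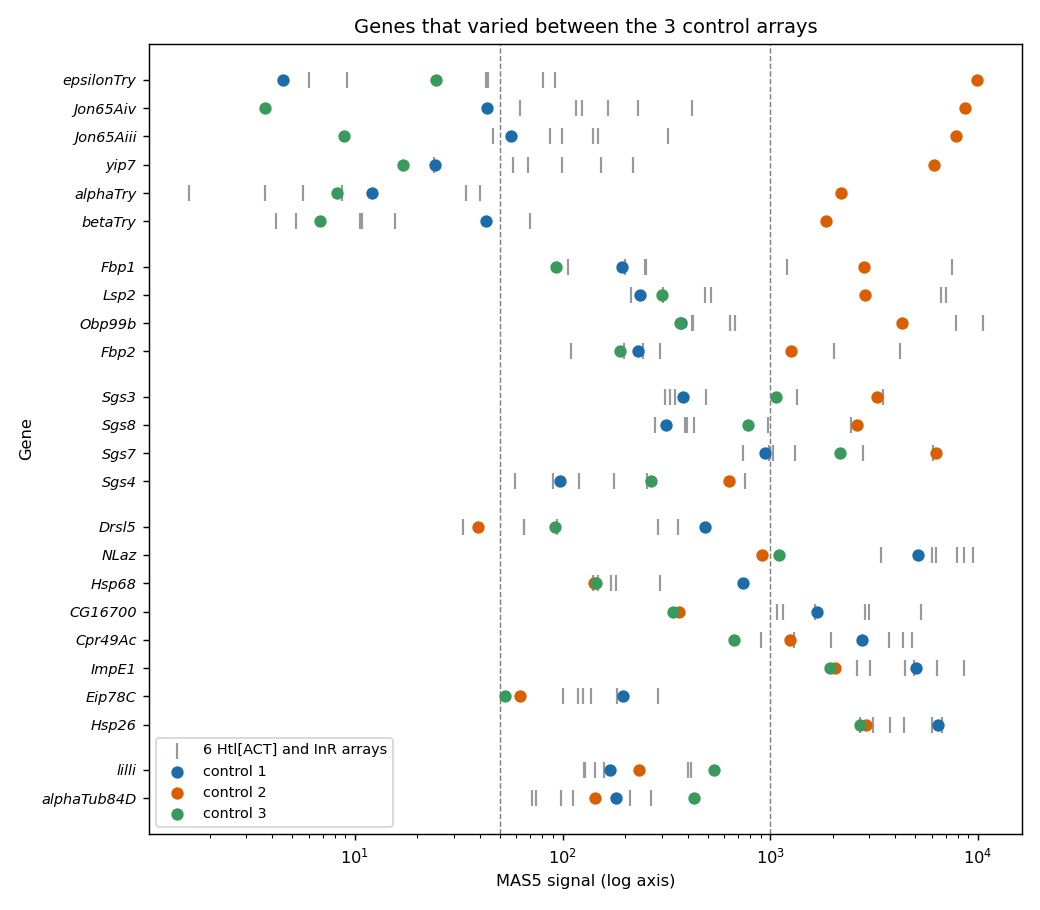
MAS5 signal (log axis) of 24 genes that varied between control arrays; coloured points are control arrays 1 to 3, grey ticks the 6 Htl[ACT] and InR arrays, and dashed lines stand at 50 and 1000. Gut genes were high on control array 2 alone, and fat body and glue genes on control array 2 and on some InR arrays. Among the control arrays, ImpE1, NLaz and Hsp68 were high on array 1.

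A smaller set was low on control array 1. The potassium channel Sh gave 720, 1458 and 1625. Named after their values were seen, the synapse-associated protein Sap47 gave 649, 1427 and 1334, and 1 probe set of the transcription factor pdm3 gave 254, 579 and 586, while its brightest probe set did not vary (3322, 3134 and 3685). Array 1 was also the lowest of the Htl[ACT] arrays for all 3 genes, with 272, 586 and 993 for Sh. Among the InR arrays, Sh was at 672, 626 and 1092, with array 3 highest. Smaller shifts in the same direction ran through whole lists. Array 1 was lowest for 54 of 69 mitochondrial ribosomal proteins, for 42 of 54 respiratory chain genes and for 16 of 17 vacuolar ATPase subunits at a signal of 50 or more, against 38.4% of all 7101 genes. These shifts were small, since the medians of the mitochondrial ribosomal list were 1125, 1202 and 1229 on the 3 arrays. Ribosomal proteins of the cytoplasm did not share them, with control array 1 lowest for 14 of 31 and control array 3 for 15.

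For a few genes the variation followed the replicate number of the labels across all 3 genotypes. The array of the same number was at least 1.5-fold above both others in each genotype for 0 genes (array 1), 2 genes (array 2) and 3 genes (array 3). The transcription elongation factor lilli, named with shi after the values were seen, gave 168, 232 and 536 on the control arrays, 128, 127 and 415 on the Htl[ACT] arrays and 159, 144 and 402 on the InR arrays. The tubulin alphaTub84D (180.3, 143 and 429) and the dynamin shi (1582, 2074 and 3116) were likewise highest on array 3 of each genotype. Of the 319 variable probe sets, the InR array of the same number was the highest of its group for 213 (66.8%), against 48.3% of all 8769. For the Htl[ACT] array it was 101 (31.7%), against 35.4% of all. By the highest array, the variable probe sets thus followed the number more often than all probe sets for InR and not for Htl[ACT]. By the lowest array they did so for both. The shares were 51.4% against 43.1% of all for InR, and 40.4% against 34.8% of all for Htl[ACT]. The ratio of the 3′ to the 5′ probe set of 18S rRNA, a measure of how complete the RNA and its copies were, was lowest on array 1 of each genotype: it was 1.62, 3.07 and 3.09 on the control arrays, 1.797, 2.85 and 4.51 on the Htl[ACT] arrays and 1.77, 3.23 and 5.04 on the InR arrays. The ratios of actin and eIF-4a ran the other way and were highest on array 1 of each genotype, with 1.72, 1.45 and 1.44 for actin and 4.0015, 3.16 and 2.96 for eIF-4a on the control arrays. For GAPDH the control arrays gave 1.78, 1.72 and 1.67. The part of RNA quality in these differences was not tested.

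The bright genes of the control CNS were then compared with the CNS in which glia expressed Htl[ACT] or InR. Log2 signals of the brighter 9384 probe sets by the mean of 9 arrays were compared with limma, and calls needed a 1.5-fold difference and a Benjamini-Hochberg adjusted p of 0.05. The control arrays both defined the bright band and entered these comparisons. In Htl[ACT] tissue 347 bright probe sets were higher and 642 lower than in control, that is 10.4% and 19.3% of 3331, beside 12.7% higher and 19.5% lower of all 9384 tested. In InR tissue 177 (5.31%) were higher and 201 (6.03%) lower, beside 8.97% and 6.39% of all tested. The shares called lower among bright probe sets were thus close to those of all probe sets, and 2286 of 3331 were called in neither tissue. Scaling changed the balance: with the arrays centred on their medians, 517 bright probe sets were higher and 389 lower in Htl[ACT] tissue, and 137 higher and 354 lower in InR tissue. This scaling moved the median log2 difference of all tested probe sets from -0.16 to 0.01 for Htl[ACT] and from -0.10 to -0.20 for InR. The comparisons share their control arrays, and 185 bright probe sets were called lower and 136 higher in both.

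Among bright genes the largest increase in Htl[ACT] tissue was that of CG11425, with 1055, 1479 and 1094 on control and 13170, 14253 and 12272 on Htl[ACT] arrays (log2 difference 3.47 ± 0.13, SE, adjusted p = 4.9e-06, limma). CG32354 (2397, 1670 and 1945 in control) rose in both tissues, by 2.81 in Htl[ACT] and 2.53 in InR on the log2 scale. Picot, a phosphate cotransporter family member, and the P450 enzyme Cyp4g15 rose in Htl[ACT] tissue by 2.79 and 2.65. In InR tissue CG10126 (1651, 2029 and 2011 in control) rose by 2.53, Arc1, which forms virus-like capsids that carry RNA, by 2.47 and Swim by 2.33. The largest decrease in both tissues was that of Ktl, with 1516, 1540.4 and 1697 on control, 447, 304 and 476 on Htl[ACT] and 519, 451 and 443 on InR arrays. It fell by 1.98 (adjusted p = 6.92e-05) and by 1.75 (adjusted p = 0.000266) in the limma fit. In Htl[ACT] tissue CG40498, the heparin-binding growth factor miple1 (7788, 5666 and 6082 in control) and the cell surface protein beat-IIa followed, with decreases of 1.86, 1.73 and 1.73. In InR tissue MFS3 fell by 1.74, the receptor-like protein otk by 1.25 and the nuclear envelope protein LBR by 1.12. Each of these calls was kept under all 19 alternative settings.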

How the data were processed

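The 9 arrays were Affymetrix Drosophila Genome 2.0 arrays, grouped by the genotype in the labels. The deposited intensity values are linear MAS5 signals that the authors computed from the scans in Affymetrix Expression Console (version not given in the sources used here). They are neither logged nor centred and have a 2% trimmed mean of 500.0 on every array. The authors' detection filter and their own test were not used here. Every deposited column was mapped to a sample.

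Genes were named from the platform's annotation, updated through gene identifiers: 13646 probe sets name 1 gene, 402 several and 4721 none, and 11892 of 11981 genes were found in the gene table (Release 6). The brightest probe set by the control mean stood for a gene. Signals were taken to log2 without a pseudocount. A limma model (version 3.58.1, under R 4.3.3) held all 3 groups, leaving 6 residual degrees of freedom (prior 1.99), and the lowest mean signal tested was 31.3. The fit was checked on simulated data. Tables and plots used Python 3.11.15, numpy 2.4.6, pandas 2.3.3 and matplotlib 3.10.9. The number of arrays limits the precision. The p-values set a difference between groups against the spread between arrays of a group, and they treat the arrays as independent. Whether the preparations were separate dissections is not stated.

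Named genes were the 25 brightest, up to the 5 brightest and 3 near-background members of each of 48 lists, the 25 with the largest range between control arrays, the 12 largest changes each way among bright genes in each contrast (4 each way are described) and the markers; others are marked as chosen after their values were seen. The members, lists and tests were chosen with earlier results of these data known. Same-numbered control and InR arrays deviated together from their group means (r = 0.46, 0.32 and 0.24), so their numbers may pair them, by the values and not by the design; for Htl[ACT] r was 0.01, -0.04 and 0.23. The reported fit has no replicate block. Alternatives were other band limits, quantile normalization, median centring, a pseudocount of 16, other filters, the replicate block, and each array left out. Promoter and protein sequences were not used here.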

Additional observations from a re-analysis of the deposited data

Results flagged for a closer look

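Among the bright genes described above with a difference from control (the 4 largest each way in each tissue), 8 differed between the Htl[ACT] and InR arrays in a direct limma contrast (1.5-fold and adjusted p of 0.05, log2 of Htl[ACT] minus InR). CG11425 (1.98), Picot (2.54) and Cyp4g15 (2.52) were higher in Htl[ACT] tissue. Arc1 (-1.68), Swim (-1.08), miple1 (-1.19), beat-IIa (-0.90) and CG40498 (-0.75) had the lower signal in Htl[ACT] tissue. Picot gave 1466, 1473 and 2061 in control and 1655, 2298 and 1956 in InR tissue. Groups of 3 arrays were too small for an outlier check within a group.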

How the results depend on the processing

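The number of bright probe sets was 1644 with both limits doubled and 5209 with both halved. Other settings kept it between 3241 and 3374, and all settings kept that of near-background probe sets between 8845 and 10794. Leaving out a control array gave 3316 to 3353 bright and 9896 to 10023 near-background probe sets. The count of variable probe sets was 1090 with a 1.5-fold range, 103 with a 3-fold range, 186 from a mean signal of 100 and 671 from 25, and 141 to 240 with 1 control array left out (lowest without control array 1). Bright probe sets called higher and lower in Htl[ACT] tissue numbered 733 and 1337 with no fold limit, 155 and 284 for a bright limit of 2000, and 389 lower with median centring. In InR tissue they numbered 435 and 903 with no fold limit, 69 and 80 for a limit of 2000, 354 lower with median centring and 129 lower with no filter on mean signal. Leaving out 1 array gave 333 to 357 higher and 573 to 674 lower in Htl[ACT], and 167 to 185 higher and 170 to 218 lower in InR tissue. With the replicate block the counts were 348 and 653 (Htl[ACT]) and 174 and 206 (InR), so pairing changed no count by over 1.5 times. Of 48 contrasts (the 12 largest changes each way among bright genes in each tissue), 45 kept their call under all 19 alternatives. NLaz and Hex-A (InR) and ct (Htl[ACT]) lost it under some. The settings with no fold limit and with a bright limit of 2000 could not remove the call of a gene. Shares by promoter motif and protein length were not run, since no sequences were used here. The cause was not tested. Signals under 50 have no reliable order.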
